A study of Mus musculus with 24 samples.

Results

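The 8 genes described here encode ion channels that shape the firing of cerebellar Purkinje cells. Kcnma1, Kcnn2, Kcnc1 and Kcna1 encode potassium channel subunits, Cacna1a and Cacna1g encode calcium channel subunits, and Scn8a and Scn4b encode sodium channel subunits. They form a named list, with no threshold on their values, and are 8 of the 54232 genes counted in each library. The question was how their transcripts compare between genotypes with and without an expanded Atxn1 allele, and with and without a serine-to-alanine change (S776A) in its protein.

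Bulk RNA of the whole cerebellum was sequenced from 24 mice aged 6 weeks, 1 library per mouse. WT mice (n = 8) carried unexpanded Atxn1 alleles only (Atxn1_2Q/2Q). SCA1 mice (n = 4) carried 1 allele with an expanded CAG repeat (Atxn1_154Q/2Q), a knockin model of spinocerebellar ataxia type 1. SCA1 S776A mice (n = 4) carried the S776A change on the expanded allele (Atxn1_154Q[S776A]/2Q), and S776A double mutants (n = 4) carried it on both alleles (Atxn1_154Q[S776A]/2Q[S776A]). WT S776A homozygous mice (n = 4) carried it on both unexpanded alleles and had no expanded allele (Atxn1_2Q[S776A]/2Q[S776A]). All alleles sat at the endogenous Atxn1 locus of C57BL/6J mice, so the change was germline and not confined to Purkinje cells, and the S776A allele was made by CRISPR/Cas9 editing. Which founder line gave these mice, and their sex, are not given in the sources used here.

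Purkinje cells are the output neurons of the cerebellar cortex, and they fire spontaneously and regularly without synaptic drive. As background, resurgent and persistent sodium current brings the cell to threshold, fast potassium current ends each spike, and calcium entering through P/Q-type channels opens calcium-activated potassium channels that set the pause before the next spike. Loss of several of these channels causes ataxia in mice. Most of these genes are also used by other cerebellar neurons, such as granule cells and interneurons, so a bulk value is not a Purkinje cell value.

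Between 62163600 and 88430180 fragments per library were counted on genes, so counting error is small for all 8 genes and the spread between mice sets the precision. Libraries fell into 2 batches by their mapping shares, an inferred split (mean silhouette 0.634) that the labels do not give. Batch 1 held 4 WT mice and all SCA1, SCA1 S776A and S776A double mice, and batch 2 held 4 WT mice and the WT S776A homozygous mice. Each genotype was therefore compared with the 4 WT mice of its own batch. WT S776A homozygous replicates 3 and 4 stood apart, with 4.82% and 6.73% of gene counts from mitochondrial genes against 3.01% to 4.38% in the other 22 libraries. Fold changes of the 8 genes in that genotype are given with and without them. Those of a wider list of channel genes are given only with them. Atxn1, the edited gene, cannot check the labels here, because its counts do not show the repeat or the S776A change. Its mean was 50.8 ± 2.22 CPM (counts scaled to library size; SD, n = 4) in WT mice of batch 1 and 58.8 ± 3.65 CPM (SD, n = 4) in SCA1 mice. Against WT, its log2 fold change was 0.21 in SCA1, 0.27 in SCA1 S776A and 0.29 in S776A double mice. In WT S776A homozygous mice it was 0.02 (standard error 0.08 for each), and Atxn1 was called in no comparison.

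RefSeq start-site windows on GRCm38.p6 were available for 4 of the 8 genes, and the 250 bases before the start of 2 of them are shown as context for the values below. Ataxin-1 acts with the repressor capicua, whose octamers are TGAATGAA, TCAATGAA, TGAATGGA and TCAATGGA, and GC boxes (GGGCGG) mark many promoters without a TATA box. All were searched on both strands, and capitals mark the matches. Kcnc1 is shown because it had the highest level per length of the 8 genes. Its window lies at chr7:46396218-46396467, plus strand, and holds 3 GC boxes and 0 octamers. Scn8a is shown because its window at chr15:100936021-100936270, plus strand, was the only member window with an octamer.
Kcnc1: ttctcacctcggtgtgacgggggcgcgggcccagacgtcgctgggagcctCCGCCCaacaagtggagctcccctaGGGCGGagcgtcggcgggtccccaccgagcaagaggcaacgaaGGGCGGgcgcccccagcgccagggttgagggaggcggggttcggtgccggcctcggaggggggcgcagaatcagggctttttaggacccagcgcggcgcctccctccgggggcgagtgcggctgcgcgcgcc
Scn8a: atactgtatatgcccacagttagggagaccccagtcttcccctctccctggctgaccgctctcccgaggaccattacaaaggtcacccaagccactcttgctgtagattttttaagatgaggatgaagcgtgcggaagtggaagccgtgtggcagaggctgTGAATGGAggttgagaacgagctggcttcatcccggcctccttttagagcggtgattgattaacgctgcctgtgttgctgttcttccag
The Kcnc1 window was 74.4% G or C and the Scn8a window shown 53.2%, against a median of 52.4% over all 32851 windows. Of all windows, 3.19% held an octamer, 32.7% held a GC box and 8.47% held at least 3 GC boxes. The octamer of Scn8a starts 89 bases before the annotated start, and this start is an internal one of the gene. Another Scn8a window, chr15:100870395-100870644, lies nearer to the beginning of the gene. It was 68% G or C and held 0 octamers and 0 GC boxes. A match of letters is a description and not a bound site.

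Per kilobase of merged exons, Kcnc1 was the most abundant of the 8 genes in the WT mice of batch 1, at 89.7 ± 6.21 CPM per kb (SD, n = 4). Cacna1a followed at 47.9 ± 5.22 and Cacna1g at 41.8 ± 4.73 CPM per kb (SD, n = 4). Their spreads overlapped, but Cacna1a was above Cacna1g in every WT mouse of batch 1. Kcna1 stood at 32.3 ± 2.03 and Scn8a at 21.6 ± 0.654 CPM per kb (SD, n = 4). Kcnma1 at 17.8 ± 0.597 and Scn4b at 17.7 ± 0.835 CPM per kb (SD, n = 4) did not differ beyond their spread. Kcnn2 was the least abundant, at 4.83 ± 0.409 CPM per kb (SD, n = 4). Among batch 2 WT mice, Kcnc1 was again highest at 74.3 ± 6.35 and Kcnn2 lowest at 4.72 ± 0.253 CPM per kb (SD, n = 4), while Cacna1a at 30.7 ± 2.72 and Kcna1 at 30.5 ± 2.54 CPM per kb (SD, n = 4) lay within each other's spread.

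**Figure D1:**
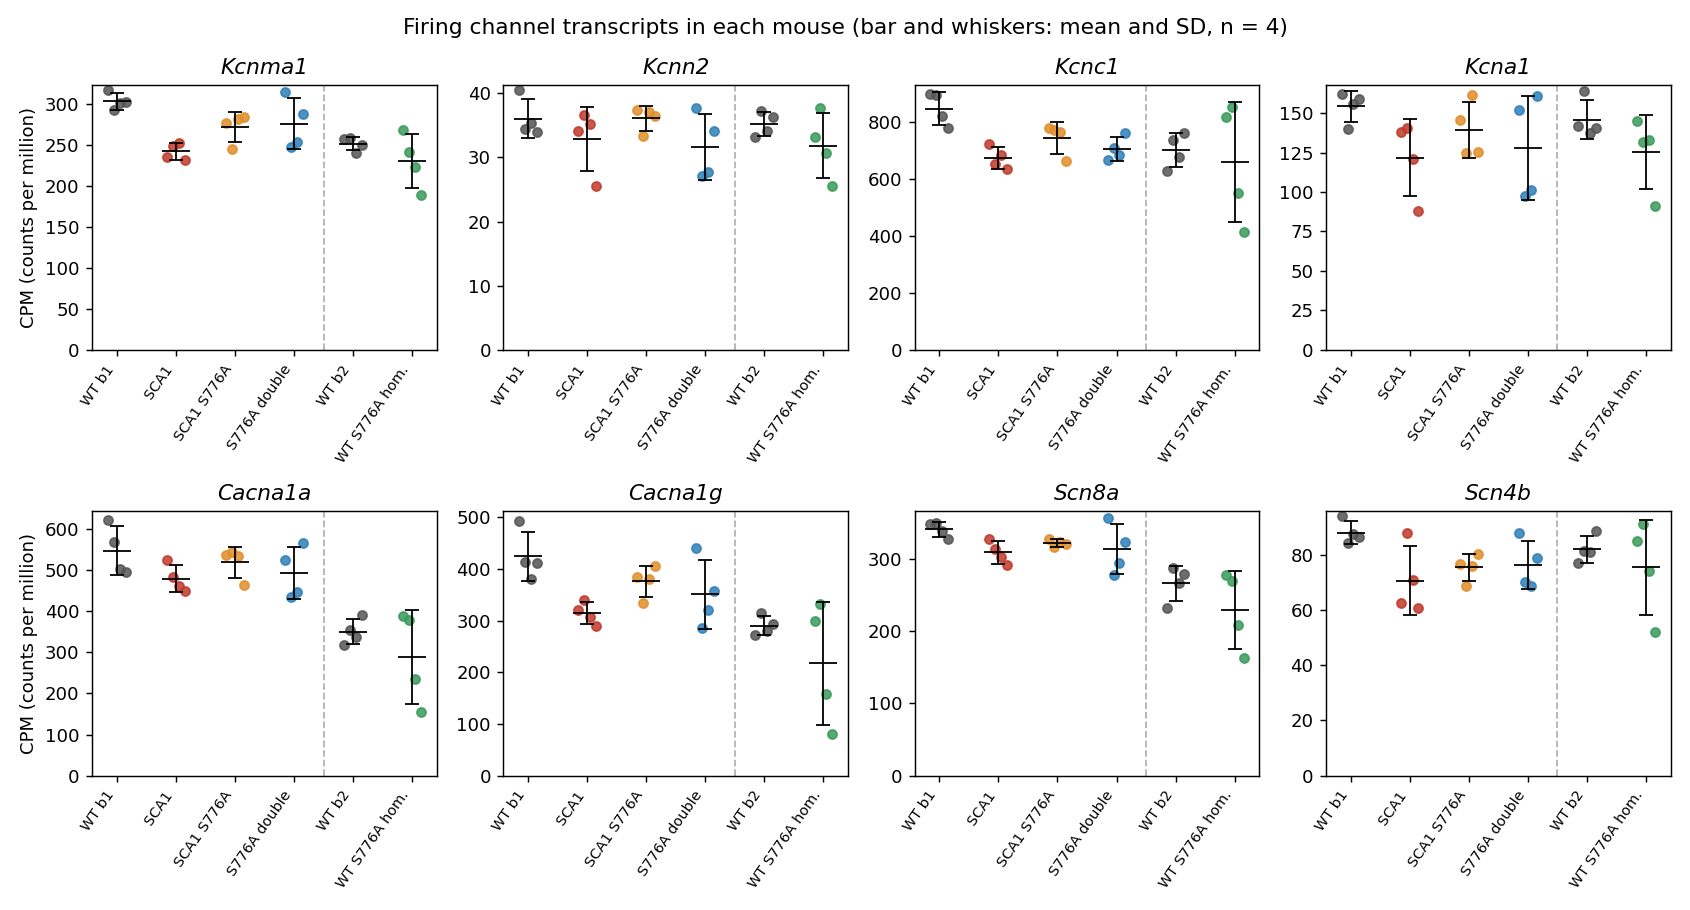
Each panel plots 1 gene, with CPM on the vertical axis from 0, a point per mouse, and the mean and SD (n = 4) of each genotype in black. The dashed line separates batch 1 (left) from batch 2 (right). SCA1 mice sit below every WT mouse of batch 1 for Kcnma1, Kcnc1 and Cacna1g, and the lowest WT S776A homozygous point is replicate 4 in every panel.

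Kcnma1 (chr14:23289431-24014491, minus strand) encodes the pore of the BK channel, which opens with calcium and depolarization and sharpens the end of the spike. In the WT mice of batch 1 it was at 317, 292, 300.3 and 302 CPM, and in SCA1 mice at 236, 248, 252 and 231 CPM. The groups did not overlap, and the log2 fold change was -0.32 (standard error 0.08, 95% interval -0.49 to -0.15, unadjusted p = 0.000591, adjusted p = 0.096) by edgeR. This is the lowest p of the 8 genes in that comparison, but it did not pass the thresholds. SCA1 S776A mice were at 276, 245, 281 and 284 CPM, also below every WT mouse of batch 1, with a log2 fold change of -0.16 (standard error 0.08). S776A double mice were at 314, 247, 254 and 287 CPM, so 1 of the 4 lay within the WT range (log2 fold change -0.14, standard error 0.08).

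Kcnn2 (chr18:45268860-45686024, plus strand) encodes a small-conductance calcium-activated potassium channel, which slows firing between spikes. It was at 40.5, 34.4, 35.4 and 33.9 CPM in the WT mice of batch 1 and at 34.2, 36.5, 35.1 and 25.6 CPM in SCA1 mice. These ranges overlapped, with SCA1 replicate 4 alone below every WT mouse (log2 fold change -0.13, standard error 0.11). In SCA1 S776A mice the log2 fold change was 0.00094 (standard error 0.11), the only positive value of the 8 genes against WT in any genotype. In S776A double mice it was -0.19 (standard error 0.11), with replicates 2 and 3 at 27.1 and 27.7 CPM and the other two inside the WT range.

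Kcnc1 (chr7:46396497-46438704, plus strand) encodes a Kv3 channel subunit that lets neurons repolarize fast and fire at high rates. WT mice of batch 1 were at 899, 895, 821 and 779 CPM and SCA1 mice at 723, 653, 687 and 637 CPM. No SCA1 mouse reached the WT range, and the log2 fold change was -0.33 (standard error 0.14, unadjusted p = 0.0289, adjusted p = 0.527 in the same edgeR test). S776A double mice, at 666, 710.1, 686 and 764 CPM, also lay below every WT mouse (log2 fold change -0.26, standard error 0.14). SCA1 S776A mice were at 779.9, 774, 766 and 663 CPM, with replicate 1 just inside the WT range (log2 fold change -0.19, standard error 0.14).

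Kcna1 (chr6:126640397-126646384, minus strand) encodes a Kv1 channel subunit that limits excitability in axons and in the basket cell terminals around Purkinje cells. It was at 162, 140.2, 156 and 159 CPM in the WT mice of batch 1, and at 138, 140.5, 121 and 87.9 CPM in SCA1 mice. Of the SCA1 mice, 3 of 4 lay below every WT mouse, and the log2 fold change was -0.34 (standard error 0.17, unadjusted p = 0.0517 by edgeR). In S776A double mice 2 libraries were low, at 97.6 and 101 CPM, and 2 lay in the WT range at 152 and 161 CPM. These are the same replicates, 2 and 3, that were low for Kcnn2.

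Cacna1a (chr8:84388440-84640246, plus strand) encodes the pore of the P/Q-type calcium channel, the main calcium entry of Purkinje cells. WT mice of batch 1 were at 621, 568, 503 and 495 CPM and SCA1 mice at 524, 483, 460.3 and 449 CPM. The ranges overlapped, and the log2 fold change was -0.19 (standard error 0.19). In SCA1 S776A mice it was -0.07 and in S776A double mice -0.15 (standard error 0.19 for each). Between batches, the WT mice themselves differed by more than any genotype did from WT, with 350.4 ± 31.1 CPM (SD, n = 4) in batch 2 against 546.6 ± 59.6 CPM (SD, n = 4) in batch 1.

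Cacna1g (chr11:94408391-94474198, minus strand) encodes a T-type calcium channel, which opens near the resting potential and feeds bursts and rebound firing. It was at 492, 414, 379.6 and 411 CPM in the WT mice of batch 1 and at 319.7, 341, 306 and 289 CPM in SCA1 mice. The groups did not overlap, and its log2 fold change, -0.43 with a standard error of 0.27 (adjusted p = 0.74 by edgeR), was the largest of the 8 genes in size. Its standard error was also the largest, and was 0.10 when WT S776A homozygous replicates 3 and 4 were left out of the fit. SCA1 S776A mice were at 385, 335, 379.9 and 406 CPM, and only replicate 2 lay below the WT range (log2 fold change -0.17, standard error 0.27). S776A double mice spread from 286 to 441 CPM (log2 fold change -0.27, standard error 0.27).

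Scn8a (chr15:100869858-101045938, plus strand) encodes the sodium channel pore that carries most resurgent current in Purkinje cells. WT mice of batch 1 were at 348, 349, 339 and 327 CPM and SCA1 mice at 327, 313, 302 and 291 CPM. The highest SCA1 mouse lay just above the lowest WT mouse, and the log2 fold change was -0.14 (standard error 0.11). SCA1 S776A mice were close together, at 315 to 328 CPM (log2 fold change -0.08, standard error 0.11), and S776A double mice spread from 277 to 357 CPM (log2 fold change -0.12, standard error 0.11).

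Scn4b (chr9:45138395-45154152, plus strand) encodes a sodium channel beta subunit whose cytoplasmic end can block the open pore, which gives resurgent current. It was at 94.0, 84.3, 87.7 and 86.4 CPM in the WT mice of batch 1 and at 62.6, 88.1, 71.0 and 60.8 CPM in SCA1 mice. SCA1 replicate 2 lay within the WT range and the other 3 lay below it (log2 fold change -0.32, standard error 0.13, unadjusted p = 0.0199, adjusted p = 0.465 in the same edgeR test). SCA1 S776A mice, at 76.6, 68.9, 76.1 and 80.4 CPM, were below every WT mouse (log2 fold change -0.22, standard error 0.13). S776A double mice were at 87.8, 70.2, 68.8 and 78.8 CPM, with replicate 1 in the WT range (log2 fold change -0.20, standard error 0.13).

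**Figure D2:**
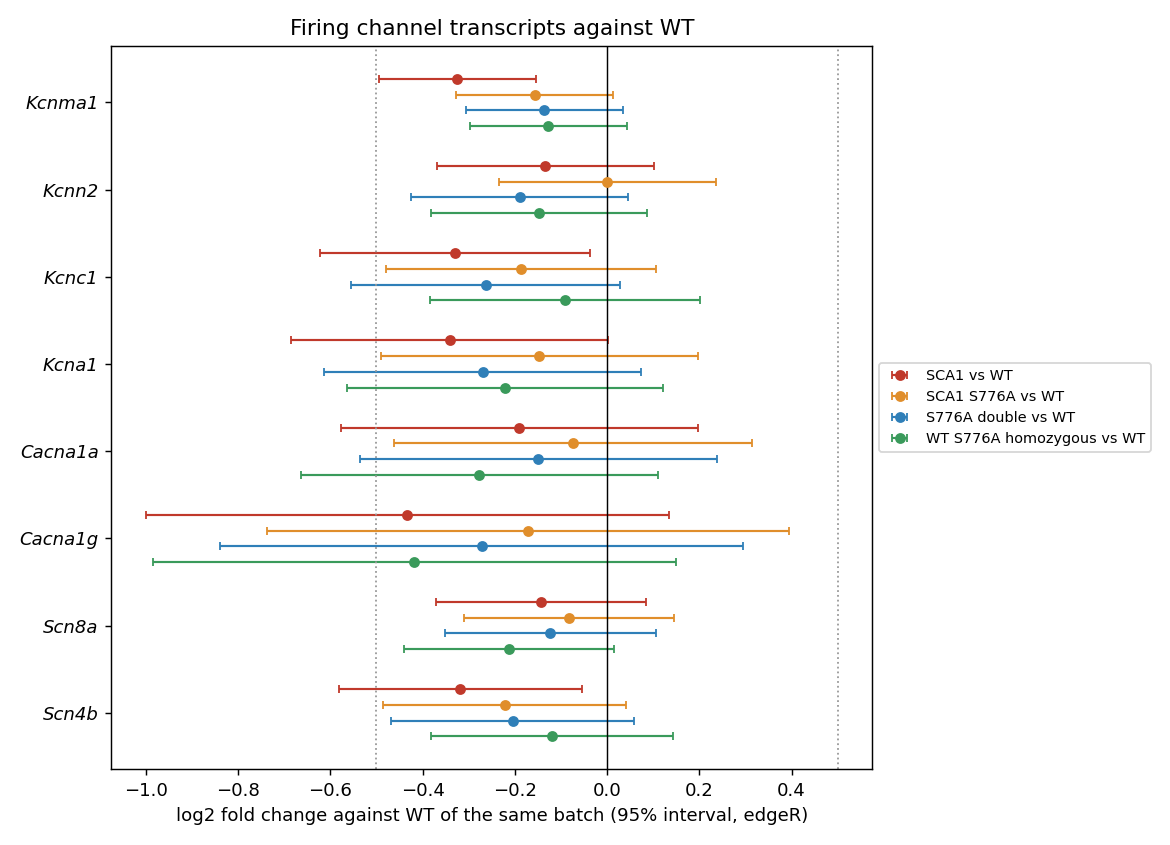
Each row is a gene and each colour a genotype, with the log2 fold change against WT mice of the same batch and its 95% interval on the horizontal axis and dotted lines at -0.5 and 0.5. All points but 1 lie below 0, and most intervals cross 0.

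Across the 8 genes, 0 were called in SCA1 mice by edgeR, which required a log2 fold change beyond 0.5 in size together with an adjusted p under 0.01, where 0.173% of the 22502 genes tested were called. At an unadjusted p under 0.05, 3 of the 8 genes were lower (Kcnma1, Kcnc1 and Scn4b) and 0 were higher, where 8.25% of all genes tested passed in either direction. All SCA1 mice lay below all WT mice of the batch for 3 of the 8 genes, Kcnma1, Kcnc1 and Cacna1g, as for 4.99% of all genes tested. All 8 log2 fold changes were negative, with a median of -0.32, while 49.5% of all genes tested were negative and their median was 0.0016. The 8 genes are not independent replicates, since the same libraries give all of them. WT replicate 1 lay above the mean of the other WT mice of batch 1 for all 8 genes, by 0.04 to 0.29 log2 CPM. None of the 8 values turned positive when 1 of these SCA1 or WT mice was left out. DESeq2, with a batch term or after ComBat-seq, also called 0 of the 8.

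In SCA1 S776A mice, 0 of the 8 genes were called by edgeR (0.0133% of all genes tested) and 0 had an unadjusted p under 0.05 (3.93% of all). Every mouse lay below every WT mouse for 2 of the 8 genes, Kcnma1 and Scn4b, as for 2.52% of all. The median log2 fold change was -0.15 and 7 of the 8 were negative. In S776A double mice, 0 were called (0.0267% of all) and 0 had an unadjusted p under 0.05 (6.93% of all), every mouse lay below every WT mouse for 1 of the 8 genes, Kcnc1 (3.54% of all), and the median was -0.20 with all 8 negative. These comparisons share the WT mice of batch 1, so a WT group that happens to be high or low moves all of them together. With the 12 mice of the 3 expanded-allele genotypes pooled, 0 of the 8 were called (0.0978% of all) and 3 of the 8 had an unadjusted p under 0.05 (7.67% of all). These 3 were Kcnma1 at a log2 fold change of -0.21 (adjusted p = 0.323), Kcnc1 at -0.26 (adjusted p = 0.591) and Scn4b at -0.25 (adjusted p = 0.545). For Kcnma1 and for Kcnc1, 11 of the 12 mice lay below every WT mouse of batch 1, a share that was not counted over all genes. All 12 lay below every WT mouse for 0 of the 8 genes, and for 162 of the 22502 genes tested.

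The expanded-allele genotypes were then compared with each other, all within batch 1, to ask whether the S776A change moved the channel genes. Against SCA1 mice, all 8 log2 fold changes of SCA1 S776A mice were positive, from 0.06 for Scn8a to 0.26 for Cacna1g. Of all genes tested, 49.9% were negative in that comparison. Of the 8 genes, 0 were called (0.00444% of all genes tested) and 0 had an unadjusted p under 0.05 (4.35% of all). The nearest was Kcnma1, at 0.17 (95% interval -0.0021 to 0.34, unadjusted p = 0.0527 by edgeR). In S776A double against SCA1 mice, 7 of the 8 were positive, where 49.6% of all genes tested were negative, and 0 were called (0% of all). Kcnma1 alone had an unadjusted p under 0.05 (3.64% of all), at a log2 fold change of 0.19 (95% interval 0.019 to 0.36, unadjusted p = 0.031, adjusted p = 1 by edgeR). In S776A double against SCA1 S776A mice, 0 were called (0% of all), 0 had an unadjusted p under 0.05 (2.96% of all), and the values ran from -0.19 for Kcnn2 to 0.02 for Kcnma1. The mice of the groups overlapped for all 8 genes in each of these comparisons, while 3.41%, 2.7% and 2.65% of all genes tested did not overlap in the same order. The intervals remain wide, for example -0.30 to 0.83 for Cacna1g in SCA1 S776A against SCA1 mice, so these tests do not show that the levels are alike.

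WT S776A homozygous mice had 0 of the 8 genes called against the WT mice of batch 2 (0% of all genes tested), 0 had an unadjusted p under 0.05 (9.98% of all), and for 0 of the 8 was every mouse below every WT mouse (1.34% of all). All 8 log2 fold changes were negative, with a median of -0.18, but the 4 mice did not behave as one group. Cacna1g was at 299, 332, 157 and 80.0 CPM in replicates 1 to 4, against 272 to 314 CPM in the WT mice. Cacna1a was at 388, 379, 234 and 155 CPM, against 318 to 391 CPM. Kcnc1 was at 818, 854, 552 and 416 CPM, against 630.1 to 764 CPM. Replicates 1 and 2 were thus in or above the WT range for these genes, and replicates 3 and 4 far below it. Without replicates 3 and 4, 7 of the 8 values turned positive, and Kcna1 remained negative at -0.08. The log2 fold changes were then 0.12 for Cacna1g, 0.13 for Cacna1a and 0.25 for Kcnc1, and 0 of the 8 were called. For Kcnc1 the unadjusted p was 0.00603 and the adjusted p 0.85 by edgeR, with only replicates 1 and 2 left in the genotype. In the same comparison, 1128 of all 23384 genes tested reached an unadjusted p below 0.05, and 0 were called.

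All genotypes share 1 estimate of spread in the fit. Without WT S776A homozygous replicates 3 and 4, the standard error of Kcnc1 in SCA1 mice was 0.07 in place of 0.14, and the log2 fold changes were nearly as before, at -0.33 for Kcnma1 (adjusted p = 0.00437), -0.34 for Kcnc1 (adjusted p = 0.00586) and -0.44 for Cacna1g (adjusted p = 0.0285) by edgeR. Kcnma1 and Kcnc1 then passed the p threshold and missed the fold threshold. Of all genes in that fit, 2908 of 23384 had an unadjusted p under 0.05 by edgeR in SCA1 mice, and 71 were called. In the fit of all mice these numbers were 1857 of 22502 and 39. Within batch 1 alone, the adjusted p was 0.0133 for Kcnma1, 0.011 for Kcnc1 and 0.0658 for Cacna1g in the same test. There, 2733 of 22054 genes had an unadjusted p under 0.05. The plot of SCA1 mice in several fits shows that the difference of each gene moved by less than its standard error in the fit of all mice.

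**Figure D3:**
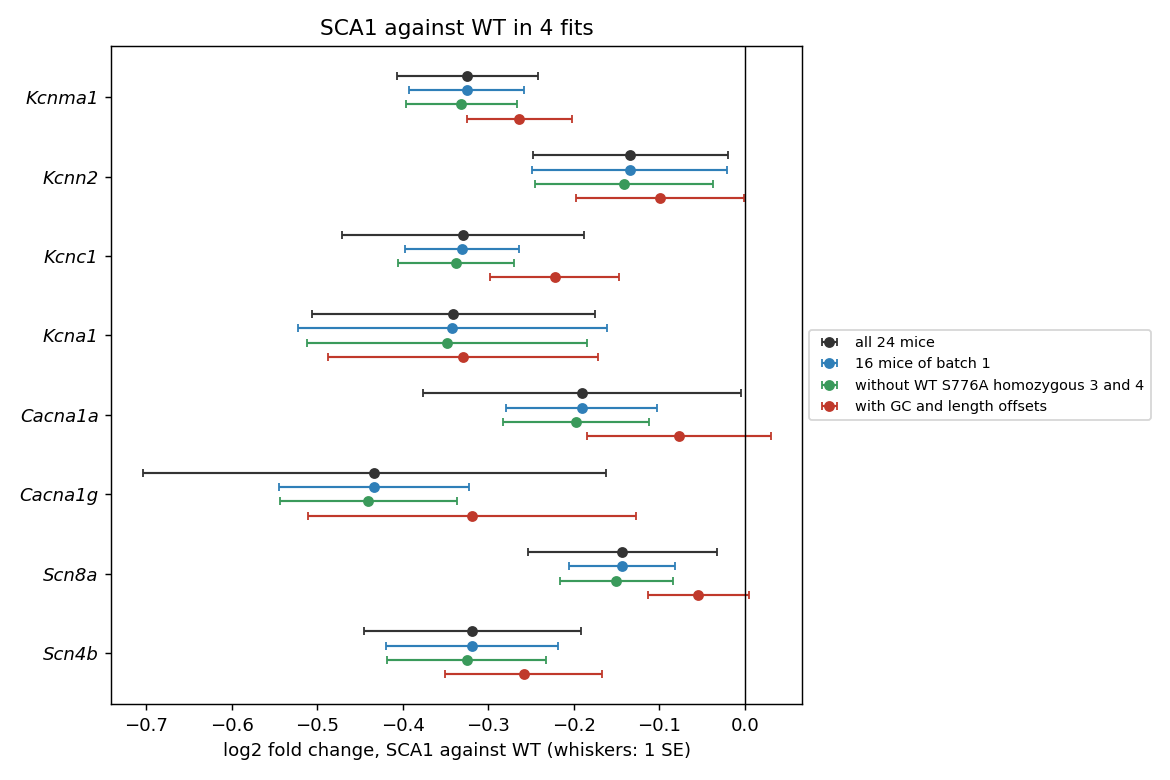
Each row is a gene, the horizontal axis is the log2 fold change of SCA1 against WT mice, the whiskers are 1 standard error, and the colours are 4 fits. The errors of Cacna1g, Cacna1a and Kcnc1 shrink in the fits without WT S776A homozygous replicates 3 and 4, and the values with GC and length offsets lie nearer to 0.

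Libraries also differed in how their counts depended on transcript properties. The longest transcripts of Cacna1a, Cacna1g and Kcnc1 lie at the 92.5th, 91.7th and 89.6th percentile of GC content among genes tested, and that of Kcnma1 at the 29.8th. All 8 transcripts are long, from the 67.4th percentile for Kcnn2 to the 99.1st for Kcnma1. Across genes, the deviation of a library from the WT mice of its batch ran against GC content with a Spearman rho of -0.52 to -0.07 in SCA1, -0.42 to -0.08 in SCA1 S776A and -0.56 to -0.18 in S776A double mice, against -0.25 to 0.26 in the WT mice of batch 1. Against transcript length, rho was -0.46 in SCA1 replicate 4 and -0.49 and -0.47 in S776A double replicates 2 and 3, the libraries with the lowest median of the 8 genes in batch 1. Over the 16 mice of batch 1, that median deviation had a Pearson r of 0.77 with the length rho (Spearman 0.77), and of 0.14 with the GC rho (Spearman 0). With the mitochondrial share its r was -0.55 (Spearman -0.47) over the same mice, and SCA1 replicate 4 had both the lowest median deviation, -0.45, and the highest mitochondrial share of batch 1, 3.97%. The part of these trends in the channel values was not tested beyond the GC and length offsets. With GC and length offsets in the fit, all 8 SCA1 values remained negative and smaller in size. Kcnma1 was then at -0.26 (adjusted p = 0.0296 by edgeR), Kcnc1 at -0.22, Cacna1g at -0.32, Cacna1a at -0.08 and Scn8a at -0.05.

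**Figure D4:**
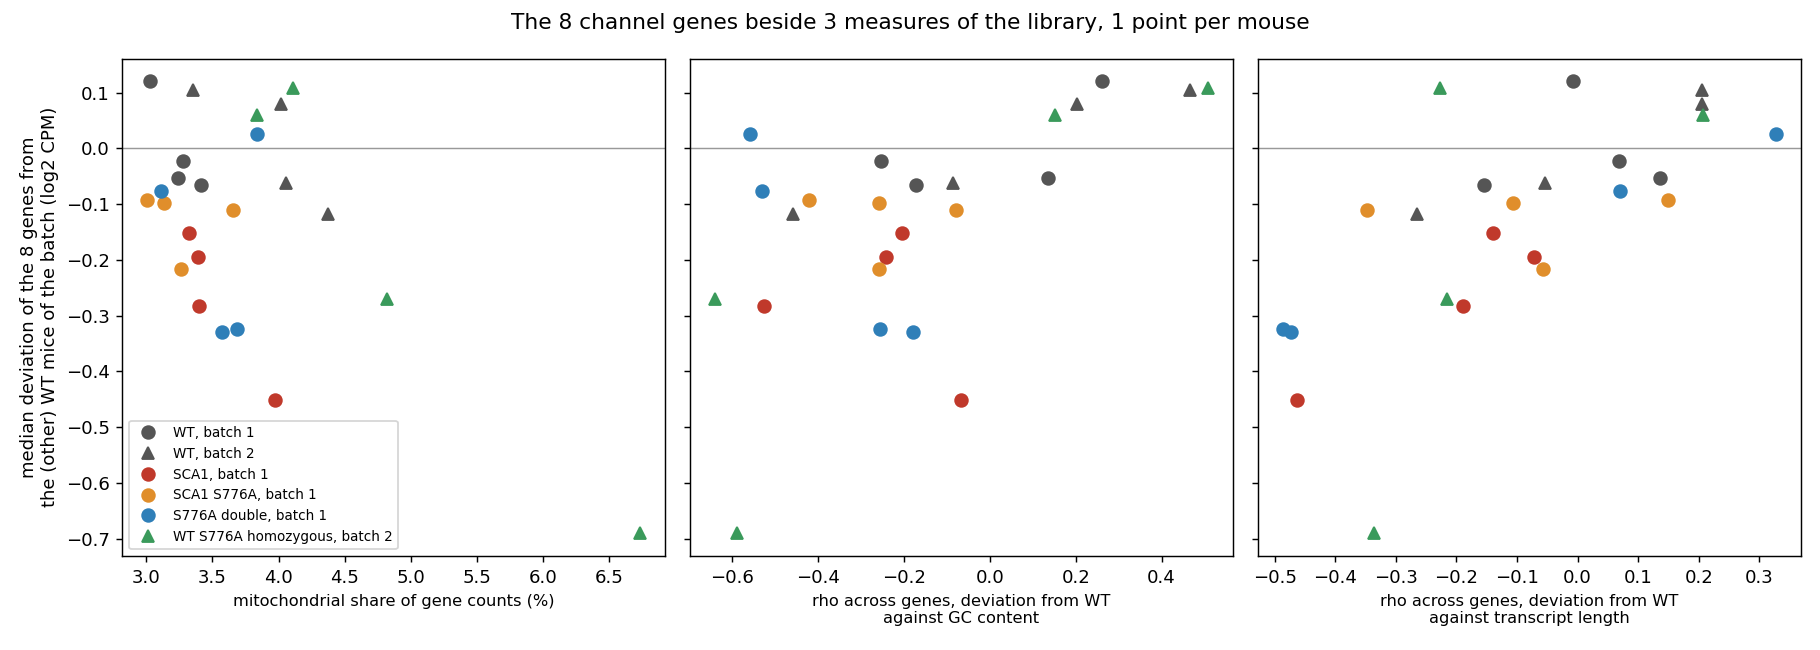
Each point is a mouse, and the vertical axis is the median over the 8 genes of the log2 CPM deviation from the other WT mice of its batch. The horizontal axes are the mitochondrial share of gene counts and Spearman's rho across genes between the deviation and GC content or transcript length. WT S776A homozygous replicates 3 and 4 lie apart at mitochondrial shares of 4.82% and 6.73%, and the low points of batch 1 have negative length rho.

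Marker lists were read beside these values. The summed level of 10 Purkinje cell markers, among them Calb1, Car8 and Rgs8, was 8439 to 9787 CPM in the WT mice of batch 1 and 6328 to 7136 CPM in SCA1 mice. In SCA1 mice, all 10 had negative log2 fold changes with a median of -0.30, 8 of the 10 had an unadjusted p under 0.05, and 0 were called. Of all genes tested, 49.5% were negative, 8.25% had such a p and 0.173% were called. In SCA1 S776A and S776A double mice the medians were -0.13 and -0.16. In SCA1 S776A against SCA1 mice, all 10 markers had positive values with a median of 0.19, where the 8 channel genes had 0.14. Of these 10, 5 had an unadjusted p under 0.05 (4.35% of all genes tested) and 4 had no overlap of the mice (3.41% of all). The median of the 8 channel genes was thus close to that of the Purkinje markers in SCA1 mice, and the part of cell number or of a general loss of Purkinje RNA in the channel values was not tested. In bulk samples, fewer cells of a type and less RNA per cell cannot be told apart. The 6 granule cell markers had a median of -0.08 in SCA1 mice, with 0 at an unadjusted p under 0.05. All 5 molecular layer interneuron markers, a class that includes the basket cells, had negative values with a median of -0.19, 3 of the 5 had an unadjusted p under 0.05, and for 3 of the 5 every SCA1 mouse lay below every WT mouse (4.99% of all genes tested). All 5 oligodendrocyte markers had positive values, with a median of 0.20 and 2 at an unadjusted p under 0.05. The 4 choroid plexus markers summed to 24.7 to 1703 CPM in the WT mice of batch 1 and 886 to 5054 CPM in SCA1 mice, led by Ttr, and their part was not tested. As a check of the tissue, Gabra6, a cerebellar granule cell gene, was at 713 to 1253 CPM over all mice.

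A wider list of 79 channel genes and channel partners, of which 78 passed the filter on low counts, gave the same comparisons outside the 8 genes. None of the 78 was called by edgeR in SCA1, SCA1 S776A, S776A double or WT S776A homozygous mice (0 in each), and 22, 9, 16 and 9 of them had an unadjusted p under 0.05, beside 8.25%, 3.93%, 6.93% and 9.98% of all genes tested. Of the 78, 58 had negative values in SCA1 mice, with a median of -0.07, which is nearer to 0 than the median of the 8 genes.

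Kcnip1, an accessory subunit of Kv4 channels, was at -0.33 in SCA1 mice (adjusted p = 0.0335 by edgeR). All 9 genes of the Kv4 class had negative values, where 49.5% of all genes tested did, but 0 were called and 3 of the 9 had an unadjusted p under 0.05. Kcnk2, a leak potassium channel, was higher at 0.37 (adjusted p = 0.0455 in the same test). Kcnb2, a delayed rectifier subunit, was at 0.71 in SCA1, 0.67 in SCA1 S776A and 0.67 in S776A double mice, with adjusted p values of 0.102, 0.742 and 0.352 in the same test. Among the genes with the lowest p in a genotype were also Kcna2 at -0.24 in SCA1 S776A mice, and Fgf13 at 0.25, Kcnmb2 at 0.78 and Kcnk2 at 0.32 in S776A double mice. In WT S776A homozygous mice, replicates 3 and 4 included, they were Kcnip4 at 0.24, Cacna2d1 at 0.21 and Cacna1d at -0.19. These differences were not confined to 1 genotype. Kcna2 was at -0.25 in SCA1 and -0.14 in S776A double mice. In SCA1 and SCA1 S776A mice, Kcnmb2 was at 0.49 and 0.48, and Fgf13 at 0.10 and 0.12. Kcnmb2 was low, at 0.72 CPM in the WT mice of batch 1. The 5 tested genes of the class with Itpr1 and Ryr1 all had negative values in SCA1 mice, with a median of -0.32, 2 of the 5 at an unadjusted p under 0.05 and 0 called, and Itpr1 is also one of the Purkinje markers above. For the remaining classes, the medians in SCA1 mice lay between -0.13 for Kv3 genes other than Kcnc1 and 0.06 for sodium channel pores other than Scn8a, apart from -0.15 for the Kv4 class.

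**Figure D5:**
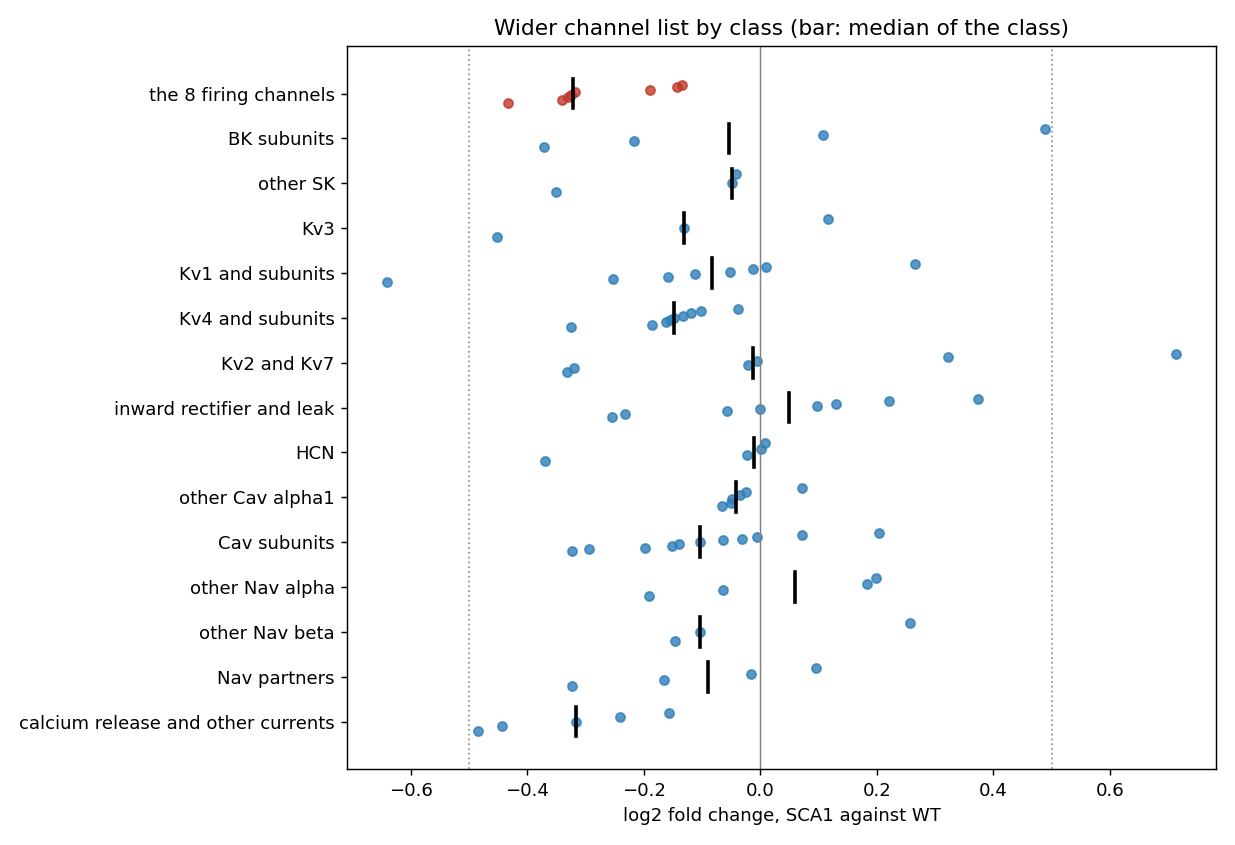
Each row is a class of channel genes, each point a gene, and the black bar the median of the class, with the log2 fold change of SCA1 against WT mice on the horizontal axis and dotted lines at -0.5 and 0.5. The 8 firing channels (red) all lie below 0, from -0.43 to -0.13, while most other classes have points on both sides of 0.

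The 8 genes also varied together from mouse to mouse. Over the 28 pairs of the 8 genes, Pearson r of log2 CPM less the WT mean of the batch ran from 0.60 to 0.94 over the 24 mice, with a median of 0.74, and from 0.42 to 0.91 over the 16 mice of batch 1. The mice share library, depth and the trends with GC content and length given above, so these values are a description. Among the 10698 more abundant genes, those most like Kcnma1 were Ppp1r16b, Rgs8 and Atp2a2 (r = 0.94, 0.94 and 0.93), and Rgs8 is one of the Purkinje markers. Those most like Kcnn2 were Kif26b, Bace1 and Apba1 (r = 0.93, 0.92 and 0.91). Epb41l1, Zfp687 and Usp20 were nearest to Kcnc1 (r = 0.96 for each), and Rnf214, Kat6a and Pcdhac2 to Kcna1 (r = 0.97, 0.95 and 0.95). Cntnap1, Dscaml1 and Rapgef1 were nearest to Cacna1a (r = 0.97, 0.97 and 0.96), and Slc12a5 and Clstn3 were among those nearest to Cacna1g (r = 0.98 for each). Lrp1, Fry and Trio were nearest to Scn8a (r = 0.98 for each), and Pcsk6, Inpp4a and Ankrd33b to Scn4b (r = 0.92, 0.92 and 0.91). Over the 16 mice of batch 1, without WT S776A homozygous mice, r for Cacna1a with Rapgef1 was 0.83 and for Cacna1g with Slc12a5 0.93. Leaving out only WT S776A homozygous replicates 3 and 4, r of Cacna1a was 0.88 with Cntnap1, 0.95 with Dscaml1 and 0.85 with Rapgef1 (22 mice).

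Between the batches, WT mice differed for several of the 8 genes, which is why each genotype was set against WT mice of its own batch. Cacna1a was lower in batch 2 by a log2 fold change of -0.64 (adjusted p = 0.00821 by edgeR) and was the only one of the 8 called, where 17.6% of all genes tested were called. Cacna1g was at -0.55, Scn8a at -0.36, Kcnma1 at -0.27 and Kcnc1 at -0.27. Exons of 3 of the 8 genes overlap transcripts on the opposite strand. The overlap was 1016 bases for Kcnma1, 323 and 284 bases for Kcnn2 and 435 bases for Cacna1a. The counts are unstranded, and ambiguous fragments, 5.00% to 5.41% of each library, were counted for no gene. Fragments of these stretches may thus be missing from the counts of the 3 genes.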

How the data were processed

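Cerebellar RNA of 24 mice was sequenced as paired-end Illumina libraries. The authors used Trimmomatic 0.36 for trimming and STAR 2.7.2d for alignment to GRCm38.p6, and deposited raw counts of fragments per gene, with no normalization. Their later batch correction is not in these counts. Of 54232 gene identifiers, 54165 matched GENCODE M21 without the version suffix. The unstranded count column was used. Batches were inferred by k-means (k of 2, 50 starts) on the percentages of fragments unmapped, mapped to several places, outside genes or ambiguous.

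Counts were normalized by TMM and tested by robust quasi-likelihood fits in edgeR 4.0.16 under R 4.3.3 on the 22502 genes that passed filterByExpr, in 1 fit of all mice with genotype and batch terms, and Benjamini-Hochberg adjustment over all genes tested. A call needed a log2 fold change beyond 0.5 in size and an adjusted p under 0.01. CPM are scaled by TMM, and log2 CPM use a prior count of 2. The tests were tested on simulated data. Each gene's longest transcript gave its GC content and length. A p-value sets a difference beside the spread between mice, which the fit of all mice estimates over all genotypes together.

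The 8 genes, the wider channel list and the marker lists were chosen with earlier results of these data known. Named genes are Atxn1, the 8 genes, the 3 genes of the wider list with the lowest p in each comparison with WT, and the 3 genes with the highest Pearson r to each of the 8 among genes with a mean log2 CPM of at least 3. Marker genes were named where their level moved with a result. Alternatives were other batch handling (DESeq2 1.42.0 with a batch term, ComBat-seq of sva 3.50.0), normalizations, filters, thresholds and Xist as a covariate. Others were the stranded count columns summed, which does not separate the strands, and leaving out each mouse. GC and length offsets, and leaving out 2 libraries together, were chosen after seeing the data. Some features and genes that these rules cover are not reported here.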

Additional observations from a re-analysis of the deposited data

Results flagged for a closer look

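For each of the 8 genes, each genotype and batch of 4 mice was searched for a mouse far from the other 3, which made 48 groups. A gap past Dixon's critical value for 4 samples was found in 2 of them, where chance alone gives about 2.4. Both were in SCA1 S776A replicate 4. Its log2 CPM of Kcnc1 was 9.37, against 9.58 to 9.61 in the other SCA1 S776A mice (gap over range 0.886, n = 4). Its log2 CPM of Cacna1a was 8.85, against 9.06 to 9.09 (gap over range 0.879, n = 4).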

How the results depend on the processing

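In all 12 alternative settings and without each mouse in turn, 0 of the 8 genes were called in any comparison. No paired analysis was possible because the labels give the genotypes no common replicate numbers and tie no mice to a litter or day, so the numbers used here only name mice. Of 704 single values, none of them called, 21 had the opposite sign, among them Cacna1g in WT S776A homozygous mice, whose -0.42 was the largest in size of its comparison. Without a batch covariate, Cacna1a and Scn8a were at 0.0951 and 0.0242 in SCA1, 0.212 and 0.0846 in SCA1 S776A, 0.137 and 0.0445 in S776A double and 0.148 and 0.0511 in pooled mice, and Cacna1g was at 0.0765 in SCA1 S776A mice. With Xist as a covariate, Kcnc1, Cacna1a and Cacna1g were at 0.0193, 0.0373 and 0.0102 in S776A double against SCA1 S776A mice. With GC and length offsets, Cacna1a was at 0.0053 in SCA1 S776A mice and Kcnc1 at 0.0311 in WT S776A homozygous mice. Without WT S776A homozygous replicates 3 and 4, that genotype had Kcnc1 at 0.25, Cacna1a at 0.13, Cacna1g at 0.12, Scn4b at 0.10, Scn8a at 0.0342, Kcnma1 at 0.0113 and Kcnn2 at 0.0045. In the fit with no batch covariate, the WT mice of both batches together served as the reference. All 8 genes were lower in WT mice of batch 2 than in those of batch 1. The largest of these log2 fold changes were -0.64 for Cacna1a, -0.55 for Cacna1g and -0.36 for Scn8a, the genes that turned positive in that fit. The cause of the sign changes in this paragraph was not tested.

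Leaving out 1 mouse turned 24 of 576 single values, in 10 results. Against WT, Kcnn2 ran from -0.0280 to 0.0621 in SCA1 S776A mice, and in WT S776A homozygous mice Kcnc1 ran from -0.25 to 0.0734 and Scn4b from -0.23 to 0.0199, both positive without replicate 4. In S776A double against SCA1 mice, Kcna1 ran from -0.0541 to 0.19, Scn8a from -0.0458 to 0.0806, Kcnn2 from -0.15 to 0.0191 and Cacna1a from -0.0278 to 0.10. In S776A double against SCA1 S776A mice, Scn4b ran from -0.0603 to 0.0627, Kcnma1 from -0.0523 to 0.0695 and Scn8a from -0.11 to 0.0136. In SCA1 mice against WT none of the 8 genes turned, but some moved by over 1.5 times. Kcnn2 ran from -0.20 to -0.04, at -0.04 without SCA1 replicate 4 and -0.07 without WT replicate 1. Kcna1 ran from -0.43 to -0.22, the latter without SCA1 replicate 4, and Cacna1a from -0.24 to -0.12, the latter without WT replicate 1. Kcnma1 stayed between -0.35 and -0.30. Its adjusted p in these fits ran from 0.152 to 0.307 by edgeR, against 0.096 in the fit of all mice.

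Over all genes, 39 were called in SCA1, 3 in SCA1 S776A and 6 in S776A double mice. ComBat-seq then DESeq2 called 117, 32 and 50, and 99 in WT S776A homozygous mice where edgeR called 0 (2246 at an unadjusted p under 0.05). DESeq2 with a batch term called 66, 9 and 19, the mice of batch 1 alone 65, 0 and 11, and the fit without WT S776A homozygous replicates 3 and 4 called 71, 8 and 17. An adjusted p under 0.05 with no minimum fold gave 87, 5 and 18. With GC and length offsets, 0 were called in SCA1 S776A mice. In the pooled expanded-allele mice 22 were called, against 45 without a batch covariate, 84 after ComBat-seq, 46 with no minimum fold and 36 without the 2 homozygous libraries. In SCA1 S776A against SCA1 mice 1 was called, against 4 by DESeq2 with a batch term and 10 after ComBat-seq.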
